A study of Arabidopsis thaliana with 16 samples.

Results

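The abundant array probes that each name several genes were compared between the gun1-1 mutant and wild type (WT) of Arabidopsis thaliana. A probe was taken when the platform's gene table lists 2 or more genes for it and its mean deposited value over the 8 WT samples was 1 or more. This gave 68 of 3439 probes. Another 802 probes list several genes but lay under that level. The WT values that chose the probes are given as a description only, and they are also the WT arm of every difference below. Each probe is reported as a group of genes. Probe sequences were not available, so which of the listed genes a probe detects is unknown, and no change can be assigned to a single gene of a group. Groups are written as the listed genes joined by slashes.

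Total RNA was measured on 1-channel arrays in 8 samples of gun1-1, labelled gun1, and 8 samples of WT, both in the ecotype Columbia 0 and both numbered 1 to 8. The labels do not state tissue, plant age, growth conditions or treatment. Nothing says that the numbers mark separate plants, and the p-values therefore cover the spread among these 16 samples, which may be technical. Every deposited sample ran from 0 to 100, with a median of 0.216 to 0.259 in gun1 and 0.130 to 0.157 in WT. Values below are intensities after quantile normalisation, which gives every sample the same distribution, and a level of 1 is 1% of the highest value of a sample. Values under 0.0313 were raised to that floor before log2. A probe is called when limma's adjusted p, corrected over 3419 probes, is under 0.05.

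GUN1 is a pentatricopeptide repeat protein of the plastid that takes part in retrograde signalling, by which plastids report their state to the nucleus. In gun mutants, nuclear genes for photosynthesis stay partly active when chloroplast development is blocked. Many plant proteins, among them antenna proteins, ribosomal proteins and ubiquitin ligases, are encoded by small families of similar genes, and a probe to a shared stretch cannot separate such copies. Neither GUN1 nor the seed storage, pollen, root or senescence markers looked for are listed on any probe of the table, so the labelled mutation could not be checked. Of 42 green tissue genes looked for, those listed were the LHCB4 genes, as a group of 3, and PSAN, PSBY and PSBW on single-gene probes with mean WT levels of 13.9, 3.06 and 37.7.

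The 68 probes list 161 genes, all different and all protein-coding in the RefSeq annotation of TAIR10.1. A pair of genes was listed by 48 probes, 3 genes by 16, 4 genes by 3 and 5 genes by 1. The listed genes were mostly dispersed in the genome. In 51 groups they lay on more than 1 chromosome, and in 6 groups all of them were neighbours, within 10 annotated genes of each other. A gene symbol exists for 21 of the 161 genes, in 13 groups. For 15 groups the family was read from the gene names, for 29 it is given from general knowledge of the loci, and 24 were left without a family. The role groups below were put together after the values had been seen, and they are described without a test.

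Thylakoid and plastid proteins made up 9 of the 68 groups, the machinery of chromatin and gene expression 9, and cell wall or secreted proteins 9. Another 6 belonged to the ubiquitin system, 6 were hormone, redox or metabolic enzymes, and 5 served membrane traffic. The median deposited WT level was 2.0, with 34 groups under 2, 10 at 5 or more and 4 at 10 or more. The highest deposited WT value was that of CSLC12/AT4G07950/AT4G07940, where CSLC12 is a cellulose-synthase-like enzyme of xyloglucan synthesis. It stood at 100 in all 8 gun1 samples, and its lowest, median and highest values were 88.1, 92.4 and 100 in WT. The highest value of every deposited sample is 100, and whether larger signals were cut off or rescaled is not stated. The difference of 0.10 (log2, SE 0.10, limma's adjusted p = 0.437) was not called. It depends on the scaling, with -0.57 and a call at a common median (limma's adjusted p = 0.000360). With the bright probes at a common median it was 0.27, also called (limma's adjusted p = 0.0230).

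Just inside the level of 1 stood AT1G67400/AT3G43400, with a mean deposited value of 0 in gun1 and 1.00 in WT. Its WT median was 0.000344, and the WT mean was carried by WT replicate 4 alone. The next were AT5G27300/AT2G27800/AT2G27790, at 1.59 in gun1 and 1.02 in WT, and AT3G51325/AT5G45290, at 0.20 in gun1 and 1.13 in WT. Just outside stood AT1G73160/AT4G19460/SETH2, at 0.541 in gun1 and 0.978 in WT, and AT1G05894/AT2G31480, at 0.614 in gun1 and 0.959 in WT. Another 11 probes that name several genes averaged 1 or more in gun1 but less in WT. They are not members, and 1 of them, RH39/AT3G06980, averaged 1.94 in gun1 and 0.223 in WT.

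Of the 68 probes, 26 were called, 10 higher and 16 lower in gun1. That is 38.2%, against 31.8% of all probes tested. Over all probes 16.6% were called higher and 15.2% lower. The rule fixed the WT arm, so nothing is read from the excess of falls. Chosen instead by a mean of 1 or more in gun1, 71 probes gave 20 rises and 9 falls, and chosen by the mean over all 16 samples, 69 probes gave 15 rises and 13 falls. For all 26 called probes the difference had the same sign in each of the 8 numbers, as it did for 36 of the 68 members. The share over all probes is not given here, and consecutive numbers resembled each other, so nothing is read from this count.

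The sizes were mostly modest. The median difference was -0.01 over the members and -0.05 over all probes (log2), and the median size without sign was 0.28 and 0.45. Of the called members, 10 fell and 4 rose by 1.5-fold or more (27.6% of all probes in either direction). By 2-fold or more 4 fell, a count that is not read further because its share over all probes is not given here. The values of gun1 and WT did not overlap for 9 members, 13.2% against 8.13% of all probes. For 40 of the 42 members that were not called, the 95% interval of the difference lay within 2-fold either way, and for 33 it lay within 1.5-fold. All intervals given here count each number as a separate sample. They are too narrow if consecutive numbers are not independent, and they hold for quantile normalisation only. Fewer cells of a type that uses a gene and less of its RNA per cell cannot be told apart in these values.

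The rises depend on the scaling. When each sample was scaled to a common median instead, the median of the members shifted to -0.80, 57 were called (45.3% of all probes). All 57 were lower (29.8% of all probes) and 0 higher (15.5% of all probes), also 0 at an unadjusted p under 0.05 with limma. Only AT5G51520/AT4G25250 then kept a positive difference. On the deposited values without scaling, 31 members were called (41.7% of all probes), 10 of them higher (35.6% of all probes) and 21 lower (6.02% of all probes). With cyclic loess all 26 calls were kept, and with the bright probes scaled to a common median 24 were, among them all 10 rises. All 16 falls kept their sign under the 4 other scalings tried. They were called with a common median, without scaling and with cyclic loess, but YUC6/YUC2 (adjusted p = 0.0921) and AT3G04180/COS1 (adjusted p = 0.0742) were not called with the bright probes at a common median.

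The number of independent samples is uncertain. Consecutive numbers (1 and 2, 3 and 4, 5 and 6, 7 and 8) resembled each other closely, with a median difference over the members of 0.0727 to 0.106 (log2) within such a pair in gun1, against 0.167 to 0.314 for other pairs of gun1 samples. In WT the ranges were 0.0687 to 0.123 within consecutive pairs and 0.145 to 0.329 for other pairs. With consecutive numbers averaged into 4 samples per genotype, 5 members were called (17.3% of all probes), 1 higher (9.74% of all probes) and 4 lower (7.58% of all probes). These 5 were AT3G51325/AT5G45290, AT5G47610/AT4G17245, AT4G17840/AT2G35260, AT1G52300/AT3G16080 and AT5G27880/AT5G01860. The other 21 calls were made with each number counted as a sample. With consecutive numbers as a random block 18 were called (21.4% of all probes), 8 higher (11.7% of all probes) and 10 lower (9.77% of all probes). The 8 calls lost under this block (adjusted p = 0.0509 to 0.0876) were those of AT1G80620/AT1G15810, TROL/AT3G25480, UFO/AT5G15710, AT4G00165/AT2G45180, AT3G04180/COS1, AT5G66000/AT4G35510/AT2G17540, AT1G70160/AT5G54870/AT4G27020 and AT2G45406/AT2G44030.

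Samples of the same number also deviated together in the 2 genotypes. With the number as a block, 30 members were called (37.8% of all probes), 12 higher (19% of all probes) and 18 lower (18.8% of all probes). The members whose call this changed are named with their values below.

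The ubiquitin system held the largest falls. Its 6 groups comprised 4 pairs or trios of RING finger proteins, most of which in plants are ubiquitin ligases that mark other proteins for breakdown, 1 of ubiquitin-conjugating enzymes and 1 of F-box proteins. 3 fell, 1 rose and 2 were not called, beside 15.2% lower and 16.6% higher among all probes. The median difference was -0.37. Nothing is read from the counts of so few groups, here or in the role groups below. The values of AT3G51325/AT5G45290 were 0.0692, 0.170 and 0.231 in gun1 (lowest, median, highest) and 0.916, 1.12 and 1.27 in WT. Every gun1 sample lay far below every WT sample. Its level averaged 0.159 ± 0.050 in gun1 and 1.12 ± 0.108 in WT (SD, n = 8 each), a fall of 7.45-fold (log2 difference -2.90, SE 0.20, limma's adjusted p = 4.21e-08).

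AT5G47610/AT4G17245, a second pair of RING finger genes, had values of 0.362, 0.518 and 0.717 in gun1 and 1.55, 2.36 and 2.59 in WT. The groups did not overlap here either, and the fall was 4.4-fold (log2 difference -2.14, SE 0.16, limma's adjusted p = 8.06e-08). The third pair, AT5G55970/AT4G26580, had 2.38, 2.77 and 3.29 in gun1 and 3.22, 4.55 and 6.18 in WT. Its highest gun1 sample passed the lowest WT sample, and the difference was -0.71 (SE 0.15, limma's adjusted p = 0.00208). AT1G74870/AT5G62910/AT3G48070 was not called, with a difference of -0.03 and a 95% interval from -0.43 to 0.36.

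UFO/AT5G15710 moved the other way. UFO is an F-box protein, the part of a ubiquitin ligase that picks the target, and acts in flower patterning. Its values were 1.39, 1.58 and 1.71 in gun1 and 0.969, 1.28 and 1.43 in WT, so the groups touched at their edges. The rise of 0.35 (SE 0.12, limma's adjusted p = 0.0300) turned to -0.43 with a common median. It was not called without gun1 replicate 6, WT replicate 7 or WT replicate 8 (adjusted p = 0.0505 to 0.0583). UBC20/UBC19, ubiquitin-conjugating enzymes tied to the cell cycle, differed by 0.08 with an interval from -0.25 to 0.41.

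Of the 9 thylakoid and plastid groups 3 fell, 0 rose and 6 were not called, beside 15.2% lower and 16.6% higher among all probes. At an unadjusted p under 0.05 with limma 0 of the 9 were higher too, beside 20.7% of all probes, and nothing is read from so few groups. Their median difference was -0.15. AT4G17840/AT2G35260, thylakoid membrane proteins that promote chlorophyll synthesis, had values of 0.559, 0.785 and 0.870 in gun1 and 2.03, 2.35 and 2.59 in WT. The genotypes were fully separated. The level averaged 0.735 ± 0.123 in gun1 and 2.34 ± 0.193 in WT (SD, n = 8 each), a fall of 3.22-fold (log2 difference -1.69, SE 0.13, limma's adjusted p = 8.06e-08). Genotype accounted for 95.4% of the variation of this probe, the highest share among the members.

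The fibrillin group AT5G09820/AT4G22240/FIB/AT2G35490 also fell. Fibrillins coat plastoglobules, the lipid droplets attached to thylakoids. Its values were 0.803, 1.01 and 1.32 in gun1 and 1.30, 1.65 and 1.96 in WT, with a small overlap, and the difference was -0.65 (SE 0.14, limma's adjusted p = 0.00245). TROL/AT3G25480 lists rhodanese-like thylakoid proteins, of which TROL anchors ferredoxin-NADP reductase to the membrane. It had 2.87, 4.39 and 5.42 in gun1 and 4.34, 5.73 and 6.69 in WT. The ranges shared a wide band, and the call (difference -0.42, SE 0.15, limma's adjusted p = 0.0485) was lost when any of 11 samples was left out (adjusted p = 0.0573 to 0.0898), namely gun1 replicates 1, 2, 5, 7 and 8 and WT replicates 1 to 6.

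The remaining 6 thylakoid and plastid groups include core parts of the photosynthetic membrane. LHCB4.1/LHCB4.2/LHCB4.3, the minor antenna CP29 of photosystem II, had 1.44, 1.70 and 2.24 in gun1 and 1.58, 1.98 and 2.27 in WT. The ranges lay almost on top of each other, with a difference of -0.15 and an interval from -0.44 to 0.13 (limma's adjusted p = 0.410). ATPC2/ATPC1, the gamma subunit of the plastid ATP synthase, differed by -0.23 (interval -0.54 to 0.08). LIL3:2/LIL3:1, light-harvesting-like proteins that hold enzymes of chlorophyll synthesis, differed by 0.18 (interval -0.12 to 0.47). AT4G38100/AT4G01150, CURT1 proteins that bend the thylakoid at the grana margins, differed by -0.02 (interval -0.36 to 0.32). AT5G35660/AT2G26500, of which AT2G26500 encodes the PetM subunit of the cytochrome b6f complex, differed by 0.17 (interval -0.05 to 0.39). The rhodanese-like pair AT3G08920/AT2G42220 differed by 0.03 (interval -0.24 to 0.31). These intervals hold for quantile normalisation only. With a common median all 6 were called lower, beside 29.8% of all probes and a median of -0.80 over the members. The differences were then -0.97 for the LHCB4 group (limma's adjusted p = 1.26e-05), -1.01 for ATPC2/ATPC1 and -0.82 for the CURT1 pair. They were -0.60 for LIL3:2/LIL3:1 and for AT5G35660/AT2G26500, and -0.73 for the rhodanese-like pair.

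Among the 9 groups of chromatin and gene expression, 3 rose, 2 fell and 4 were not called (16.6% higher and 15.2% lower among all probes). The median difference was 0.11. The largest rise of all members was that of AT5G27880/AT5G01860, C2H2 zinc finger proteins, a class of DNA-binding proteins. Its values were 3.16, 3.92 and 4.76 in gun1 and 1.90, 2.10 and 2.85 in WT, with no overlap. The rise was 1.74-fold (log2 difference 0.80, SE 0.13, limma's adjusted p = 0.000282), and with a common median the difference was -0.02.

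Ribosomal protein groups did not share a direction. AT1G52300/AT3G16080, ribosomal protein L37 of the cytosolic large subunit, had 0.606, 0.718 and 0.859 in gun1 and 0.805, 1.20 and 1.49 in WT. Only the edges of the ranges met, and it fell by 0.72 on the log2 scale (SE 0.15, limma's adjusted p = 0.00149). AT1G80620/AT1G15810, of the S15 family, had 0.813, 1.35 and 1.74 in gun1 and 1.34, 1.97 and 2.47 in WT, with a broader overlap and a difference of -0.55 (SE 0.17, limma's adjusted p = 0.0215, and 0.0509 with consecutive numbers as a random block). AT1G08845/AT5G27820/AT3G20230, of the L18 family, had 2.91, 3.74 and 4.4 in gun1 and 2.0, 2.55 and 3.22 in WT. It rose by 0.49 (SE 0.14, limma's adjusted p = 0.0132), against -0.32 with a common median.

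AT5G27300/AT2G27800/AT2G27790 includes a gene of the pentatricopeptide repeat family, whose members bind organelle transcripts. It had 1.19, 1.57 and 2.20 in gun1 and 0.758, 1.03 and 1.19 in WT. The lowest gun1 sample was level with the highest WT sample, and the group rose by 0.66 (SE 0.15, limma's adjusted p = 0.00325), against -0.10 with a common median. A second such group, AT1G62350/AT3G46870, was higher in all 8 numbers but not called (0.27, limma's adjusted p = 0.103). The other members not called were histone H3.3 (AT5G10980/AT4G40040/AT4G40030), at 0.03 with an interval from -0.31 to 0.37, and the elongation factor P family (AT4G26310/AT3G08740), at 0.11 with an interval from -0.11 to 0.33. A second histone H3.3 probe, AT5G10980/AT4G40030, was lower in gun1 in all 8 numbers but not called (-1.07, limma's adjusted p = 0.0859). The mTERF group AT1G62085/AT1G62110/AT1G56380, a family of organelle gene regulators, differed by 0.07 (interval -0.39 to 0.53).

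Of the 9 cell wall and secreted groups, 2 rose, 1 fell and 6 were not called (16.6% higher and 15.2% lower among all probes). The median difference was 0.09. AT5G51520/AT4G25250, pectin methylesterase inhibitors that limit the removal of methyl groups from wall pectin, had values of 70.9, 79.5 and 100 in gun1 and 43.2, 54.9 and 57.3 in WT. All gun1 samples exceeded all WT samples, with a rise of 1.52-fold (log2 difference 0.61, SE 0.12, limma's adjusted p = 0.00149). With a common median the difference stayed positive but was not called (0.09, adjusted p = 0.518). The other pair of this family, AT5G62350/AT3G47380, differed by -0.02 (interval -0.25 to 0.22).

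AT2G43865/AT3G59850/AT2G43870/AT2G43860, polygalacturonases that cut pectin, had 1.34, 1.74 and 2.24 in gun1 and 0.949, 1.19 and 1.30 in WT. The groups did not overlap, and the rise was 0.54 (SE 0.14, limma's adjusted p = 0.00654), against -0.24 with a common median. The neighbouring polygalacturonase genes AT2G43890/AT2G43880 were lower in all 8 numbers but not called (-0.37, limma's adjusted p = 0.0760), and were called with the number as a block (adjusted p = 0.0239). AT4G00165/AT2G45180, small secreted proteins of the lipid transfer family, had 7.25, 7.70 and 8.33 in gun1 and 8.53, 9.46 and 10.8 in WT. The genotypes were separated by a narrow gap, and the group fell by 0.30 (SE 0.10, limma's adjusted p = 0.0300). It was not called without gun1 replicate 6, WT replicate 3 or WT replicate 5 (adjusted p = 0.0512 to 0.0566). AT1G06890/AT2G30460, transporters that bring UDP-xylose into the Golgi for wall synthesis, were lower in all 8 numbers (-0.32, limma's adjusted p = 0.0876, and 0.0414 with the number as a block).

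Membrane traffic gave 1 fall and 1 rise among 5 groups (15.2% lower and 16.6% higher among all probes). PRA1.B1/PRA1.B2, prenylated RAB acceptors that act with Rab GTPases on vesicle membranes, had 0.0313, 0.518 and 0.842 in gun1 and 0.779, 1.16 and 1.90 in WT. In gun1 1 sample was at the floor, and the top of gun1 overlapped the bottom of WT. The fall of 3.73-fold (log2 difference -1.90, SE 0.56, limma's adjusted p = 0.0161) therefore depends on the floor, and its interval, -3.08 to -0.71, is among the widest. AT4G22850/AT4G12000, SNARE-associated proteins of the Golgi, had 9.66, 12.2 and 16.6 in gun1 and 7.77, 8.25 and 9.04 in WT. No sample overlapped, and the rise was 0.60 (SE 0.13, limma's adjusted p = 0.00224), against -0.26 with a common median. AT3G52760/AT2G36300, Yip1 proteins, differed by -0.02 (interval -0.28 to 0.24), and AT1G01910/AT5G60730/AT3G10350, of the GET3 family that inserts tail-anchored proteins into membranes, by 0.21 (interval -0.20 to 0.62). AT1G67400/AT3G43400 of the ELMO family was at the floor in 8 gun1 and 6 WT samples, and its difference is not interpreted.

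Among 6 groups of hormone, redox and metabolic enzymes, 1 rose and 2 fell (16.6% higher and 15.2% lower among all probes). YUC6/YUC2, flavin monooxygenases that make the hormone auxin, had 8.90, 9.66 and 11 in gun1 and 11, 12.9 and 13.4 in WT. The highest gun1 sample just reached the lowest WT sample, and the group fell by 0.35 (SE 0.10, limma's adjusted p = 0.0136, and 0.0921 with the bright probes at a common median). AT3G04180/COS1, where COS1 is an enzyme of riboflavin synthesis, had 0.397, 0.846 and 1.03 in gun1 and 0.689, 1.30 and 1.49 in WT. The ranges overlapped, and the call (-0.60, SE 0.22, limma's adjusted p = 0.0424) was lost when any of 10 samples was left out (adjusted p = 0.0522 to 0.0775), namely gun1 replicates 3, 5, 7 and 8 and WT replicates 1 to 6.

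The largest entry, OPCL1/AT1G20480/AT5G63380/AT4G19010/AT4G05160, lists CoA ligases, of which OPCL1 activates a precursor of jasmonate. It had 3.22, 3.55 and 4.16 in gun1 and 2.20, 2.78 and 3.05 in WT. All gun1 samples were above all WT samples, with a rise of 0.43 (SE 0.12, limma's adjusted p = 0.00959), against -0.39 with a common median. The phosphoprotein pair PHOS32/PHOS34 differed by 0.06 (interval -0.38 to 0.50). A second probe, AT1G11360/PHOS32/PHOS34, was called higher (0.68, limma's adjusted p = 0.00177). The glutaredoxins AT5G13810/AT3G57070/AT2G41330 differed by 0.24 (interval -0.03 to 0.51), and the 6-phosphogluconate dehydrogenase family pair AT1G18270/AT4G20930 by -0.29 (interval -0.56 to -0.02, limma's adjusted p = 0.0964).

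In the 24 groups left without a family, 2 rose, 4 fell and 18 were not called (16.6% higher and 15.2% lower among all probes). Their differences ran from -0.70 to 0.50, with a median of -0.07. The lowest was AT5G56070/AT5G56050/AT4G26490, with 0.480, 0.812 and 1.05 in gun1 and 0.823, 1.29 and 1.79 in WT. The ranges overlapped, and the difference was -0.70 (SE 0.21, limma's adjusted p = 0.0179). The highest was AT5G06380/AT3G11690/AT2G27180, with 1.25, 1.5 and 2.17 in gun1 and 0.889, 1.10 and 1.36 in WT. Its rise of 0.50 (SE 0.14, limma's adjusted p = 0.0123) became -0.25 with a common median. The neighbours AT1G75335/AT1G75340 fell by 0.42 (SE 0.12, limma's adjusted p = 0.0153). With the number as a block AT4G22030/AT4G04480 (0.38, adjusted p = 0.0205, with a second probe of the same genes called lower) and AT1G01570/AT4G00295 (-0.29, adjusted p = 0.0445) were called too. The calls of the last 3 groups depend on single samples. AT5G66000/AT4G35510/AT2G17540 (-0.63, limma's adjusted p = 0.0312) lost its call without any 1 of gun1 replicates 2 and 7 and WT replicates 1, 3, 4 and 6 (adjusted p = 0.0512 to 0.0592). This member was lower in gun1 in all 8 numbers, whereas a second probe, AT4G35510/AT2G17540, was higher in all 8 but not called (0.33, limma's adjusted p = 0.233). AT1G70160/AT5G54870/AT4G27020 (-0.31, limma's adjusted p = 0.0358) lost its call without any 1 of gun1 replicates 4, 6, 7 and 8 and WT replicates 3, 4, 7 and 8 (adjusted p = 0.0504 to 0.0660). It was not called either with the number as a block (adjusted p = 0.0616). AT2G45406/AT2G44030 (0.40, limma's adjusted p = 0.0292, and -0.38 with a common median) lost its call without gun1 replicate 6 or any 1 of WT replicates 1, 7 and 8 (adjusted p = 0.0509 to 0.0549).

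Some genes of 30 members are listed again by another probe, in 35 pairs of probes. Levels of different probes are not set against each other here, only their differences between genotypes. In 3 pairs both probes rose, in 3 both fell, in 12 neither was called, and in 16 only 1 of them was. In 1 pair both were called in opposite directions. AT3G51325/AT5G45290 fell 7.45-fold, as given above, whereas AT5G45290/AT4G11680/AT3G61180, which shares AT5G45290 with it, had 1.39, 1.75 and 2.85 in gun1 and 0.186, 0.271 and 0.404 in WT. Every gun1 sample of this second probe exceeded every WT sample, with a difference of 2.76 (SE 0.20, limma's adjusted p = 5.39e-08), and the difference kept its sign with a common median (2.28) and without scaling (3.01).

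Some other second probes differed in the same direction as their member, among them those of the 3 rising and 3 falling pairs. In others the sign was opposite, without a call for both probes. PRA1.B3/PRA1.B1/PRA1.B2 differed by 0.17 (limma's adjusted p = 0.762), against -1.90 for PRA1.B1/PRA1.B2. AT5G58530/AT5G13810 differed by -0.86 (limma's adjusted p = 0.0874), against 0.24 for the glutaredoxin group. Both of these second probes had samples at the floor in each genotype. A probe for AT5G56070 alone differed by -1.53 (limma's adjusted p = 0.000886). AT1G75335/AT5G60030 differed by -1.69 (limma's adjusted p = 0.000863), while AT1G75335/OTC/PYRB was not called (-0.15, limma's adjusted p = 0.654). The probe AT5G02990/AT5G03000/AT3G46050/AT2G44030 differed by 0.97 (limma's adjusted p = 0.0460). AT4G22240/FIB/AT2G46910, a second fibrillin probe, had 0.383, 0.548 and 0.758 in gun1 and 0.600, 0.924 and 1.03 in WT. It differed by -0.62 (limma's adjusted p = 0.00738), close to the -0.65 of the first. Probes for single genes of the fibrillin group were not called and differed in sign. The one for AT2G35490 differed by -0.56 (limma's adjusted p = 0.386) and the one for AT5G09820 by 0.53 (limma's adjusted p = 0.0750). A probe for AT5G01860 alone differed by 1.31 (limma's adjusted p = 0.00209), on the side of the zinc finger pair that includes it. A probe for AT1G08845 alone differed by 1.47 (limma's adjusted p = 0.0147), with 4 WT samples at the floor. A second probe listing AT4G17840/AT2G35260 was close to the floor, with 5 gun1 and 2 WT samples at it, and differed by -1.02 (limma's adjusted p = 0.0615). The second L37 probe, AT1G52300/AT1G15250/AT3G16080, differed by -0.67 (limma's adjusted p = 0.0511).

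Probes listing the same genes could also differ. UBC20/UBC19 has a second probe that fell by 0.44 on the log2 scale (limma's adjusted p = 0.0211), against the 0.08 of the member. AT4G38080/AT2G22510 has a second probe that fell by 1.54 (limma's adjusted p = 0.00343), with 4 gun1 samples at the floor. Its member differed by -0.19 and was not called (limma's adjusted p = 0.292). The second probe of AT4G22030/AT4G04480 had 0.254, 0.370 and 0.467 in gun1 and 0.335, 0.506 and 0.667 in WT. It was lower in gun1 in all 8 numbers and fell by 0.46 (limma's adjusted p = 0.0327), whereas the member was higher in all 8 numbers (0.38, limma's adjusted p = 0.193). CSLC12 stands on 2 probes besides the one at the top of the scale. The one shared with CSLC5, CSLC04 and ATCSLC08 rose by 1.13 (limma's adjusted p = 0.00982), and the one shared with AT4G07990, AT4G07950 and AT4G07940 fell by 1.24 (limma's adjusted p = 0.00303).

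Members differed in how their values were spread over genotype and number. Genotype carried 80% or more of the variation between samples in 4 members, and the number in 6. The 2 shares are not comparable in size, since the number takes 7 of the 15 degrees of freedom and genotype 1. The 4 were AT4G17840/AT2G35260 (95.4%), AT3G51325/AT5G45290 (93.9%), AT5G47610/AT4G17245 (93.8%) and AT5G27880/AT5G01860 (80.3%).

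The clearest case of the number was AT1G71970/AT1G22680, with 96.6%. In numbers 1, 2, 7 and 8 its values were 7.94 to 9.48 in gun1 and 6.18 to 9.84 in WT. In numbers 3 to 6 they were 0.330 to 0.790 in gun1 and 0.717 to 1.25 in WT. Both genotypes thus split the same way by number. A second probe with the same entry showed no such split, at 0.417 to 0.884 in gun1 and 0.508 to 0.859 in WT over all numbers. The mTERF group (96.5%) and histone H3.3 (92.3%) also varied mostly by number. AT4G20840/AT4G20830, berberine bridge enzyme-like proteins, had 2.30 to 2.38 in gun1 and 1.86 to 1.94 in WT in numbers 7 and 8, against 1.01 to 1.49 in gun1 and 0.714 to 1.24 in WT in the others. It was higher in gun1 in all 8 numbers, by 0.38 (limma's adjusted p = 0.250, and 0.0159 with the number as a block). A second probe with the same entry was called higher (1.89, limma's adjusted p = 0.00206), with 5 WT samples at the floor. What the numbers stand for is not stated, and their part in these values was not tested.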

How the data were processed

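The deposited table holds intensities on a linear scale, per the labels without a stated scanner, background correction or normalisation. Every deposited column runs from 0 to 100. The values were quantile normalised, set to a floor at the 5th percentile of the positive normalised values (0.0313) and tested on the log2 scale with limma 3.58.1 (lmFit, eBayes) in R 4.3.3, gun1 minus WT, two-sided, with Benjamini-Hochberg adjustment at 0.05 over the 3419 probes that vary. Folds compare geometric means, and levels are arithmetic means ± SD. The number of arrays limits the precision.

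Groups came from the sample titles. The members and lists were chosen with earlier results of these data known. Singled out were the 6 largest rises, the 6 largest falls, the 6 highest WT levels and up to 3 members per family list, 26 groups in all. Other groups were named after their values were seen. Genes were matched to RefSeq (TAIR10.1) for names and neighbours only.

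The fit behind the calls has no block. The numbers were found to pair gun1 with WT samples, and the fit with the number as a block is an alternative. After subtraction of each group's mean, same-numbered samples correlated with r from 0.143 to 0.421 across probes (mean 0.239, against -0.0338 for different numbers), in all 8 cases. The pairing comes from the values, since the labels give only numbers. The limma step was tested on simulated data. The simulated samples were drawn independently, so this does not cover the likeness of consecutive or same-numbered samples. Alternatives covered scaling, floor, dim probes, the number as a block, consecutive numbers, the variance model, each sample left out and the choice of members.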

Additional observations from a re-analysis of the deposited data

Results flagged for a closer look

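In 4 of 134 groups of 8 samples, 1 sample lay far from the others by Dixon's test at its 95% critical value, which chance alone gives in about 1 in 20 groups. AT1G67400/AT3G43400 had 7.39 in WT replicate 4, where the median of the other WT samples was at the floor of 0.0313, and all 8 gun1 samples were at the floor too. This 1 value brought the probe past the WT level of 1. AT5G05250/AT3G56360 had 2.26 in gun1 replicate 1, against a median of 4.47 in the other gun1 samples. AT1G21680/AT1G21670 had 4.22 in gun1 replicate 3, against a median of 3.10 in the other gun1 samples. AT2G45406/AT2G44030 had 1.84 in WT replicate 5, against a median of 1.34 in the other WT samples. The cause of these single values was not tested.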

How the results depend on the processing

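Of the 26 calls, the 16 falls kept their direction under every scaling tried, and 9 of the 10 rises changed sign with a common median. In that setting 57 members were called, 0 higher and 57 lower, and 32 of the 33 positive differences turned negative. Among the probes followed through all alternatives these were -0.022 for AT5G27880/AT5G01860, -0.10 for AT5G27300/AT2G27800/AT2G27790, -0.24 for AT2G43865 and its 3 partners, -0.25 for AT5G06380/AT3G11690/AT2G27180, -0.26 for AT4G22850/AT4G12000, -0.32 for AT1G08845/AT5G27820/AT3G20230, -0.38 for AT2G45406/AT2G44030, -0.39 for the OPCL1 group, -0.43 for UFO/AT5G15710, -0.57 for the CSLC12 group, -0.60 for LIL3:2/LIL3:1 and for AT5G35660/AT2G26500, -0.64 for AT4G26310/AT3G08740, -0.70 for histone H3.3 and -0.73 for UBC20/UBC19. The median of all probes stood at -0.05 with quantile normalisation, -0.18 with a common median, 0.41 unscaled and 0.51 with the bright probes scaled to a common median. The share of rises among the calls was 38.5%, 0%, 32.3% and 44.0% in the same order.

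With consecutive numbers averaged, 5 members were called, 1 higher and 4 lower. With consecutive numbers as a random block 18 were called, 8 higher and 10 lower. With the number as a replicate block 30 were called, 12 higher and 18 lower. The block changed no call beyond those given with the results. Members chosen by gun1 gave 20 higher and 9 lower, and a minimum of 2 gave 13 called, 5 higher and 8 lower, from 34 probes. Leaving out 1 sample gave 21 to 25 calls, 8 to 10 higher and 11 to 15 lower, with 7 of the 26 calls lost at least once and the fewest falls without WT replicate 3. The difference of histone H3.3 then ranged from -0.037 to 0.083 and changed sign in 4 of the cases. The cause of these changes was not tested. The values hold no read or background depth, so limits of detection are unknown. A level at the floor is a bound, and a level at 100 may be one.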
